A study of Mus musculus with 12 samples.

Results

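The arrays titled biological replicate 2 were compared with those titled replicate 1 or 3 in a set of mouse embryonic stem (ES) cell arrays. ES cells are self-renewing cells derived from the early embryo. There were 4 replicate 2 arrays, 1 for each of 4 genotypes, among 12 arrays in all, and each was set against the 2 other arrays of its own genotype. The comparison was chosen by the values themselves, because these arrays had stood apart in an earlier look at the same data. The differences between replicate 2 and the other arrays are therefore given as a description, with no test. The groups were wild type ES cells (the line cited to Wutz et al., 2000), Ring1B deficient cells and Eed deficient cells, both made by gene targeting, and Ring1B/Eed double deficient cells, in which Ring1B was targeted on the Eed deficient background. Ring1B (gene Rnf2) is the ubiquitin ligase of the Polycomb complex PRC1. Eed belongs to the core of the histone methylating complex PRC2. No group received a named treatment, and the labels describe each mutant as a single line, so genotype and line cannot be told apart. RNA was extracted with Trizol and hybridised to Affymetrix Mouse 430_2.0 arrays by a commercial provider. No source used here gives the medium, passage, feeder use or scan date, or says whether a replicate number marks a shared day, medium or hybridisation.

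The culture state of ES cells is read from a few connected programmes. FGF acting through ERK kinases switches on feedback inhibitors (Spry2, Spry4) and immediate early factors (Egr1, Myc) and moves cells away from naive pluripotency, while LIF acting through STAT3 maintains naive factors such as Klf4. Growth and nutrient supply set the output of ribosome biogenesis genes, of the amino acid response driven by the factor ATF4, and of sugar-sensing genes such as Txnip.

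The 12 arrays carried strong ES cell signal. The value used throughout is the MAS5 signal, a fluorescence summary for each probe set on a linear scale. Pou5f1 read 1423 to 2906, Sox2 1327 to 2941 and Dppa5a 3843 to 5421 over the 12 arrays. Eed, the targeted gene, read 25.0 to 87.1 in the 6 arrays of the Eed deficient and double deficient cells and 1248 to 1969 in the others. Rnf2 read 362 to 529 in the 6 arrays lacking Ring1B and 679 to 994 in the others, so its probe set kept signal in the targeted cells. Replicate arrays of 1 genotype correlated between 0.963 and 0.984 on the log2 scale.

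After the mean of each genotype was removed, 39.6% of the variance over 13984 genes lay along a first component and 12.1% along the next. The replicate 2 arrays scored, on the first component, 24.5 for wild type, 28.4 for Ring1B deficient, 29.9 for Eed deficient and 17.3 for double deficient cells. The replicate 1 arrays scored −27.7, −17.6, −21.8 and −9.2 in the same order, and the replicate 3 arrays 3.2, −10.8, −8.1 and −8.1. Replicate 2 was the highest array in each genotype, and wild type replicate 3 was the single other array above 0. The separation of replicate 2 from its nearest neighbour was smallest in wild type cells.

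**Figure D1:**
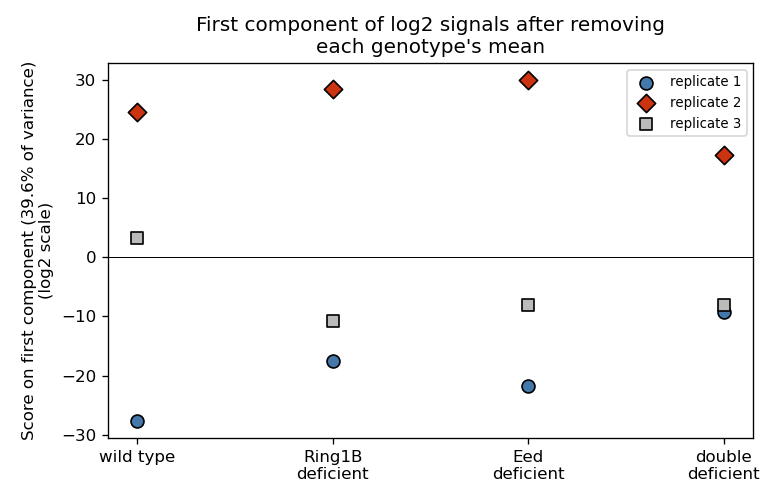
Score of each of the 12 arrays on the first component of the log2 signals after each genotype's mean was removed (y axis, log2 scale, 39.6% of variance), by genotype (x axis). The replicate 2 arrays score 17.3 to 29.9 and the other 8 arrays −27.7 to 3.2.

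A gene was counted as higher (or lower) in replicate 2 when that array lay above (or below) both other arrays in 4 of 4 genotypes and the mean difference was at least 1.5-fold. By this rule 379 of 13984 genes were higher (2.71%) and 368 were lower (2.63%). With no fold minimum, 1641 genes (11.7%) lay above and 1369 (9.79%) below both other arrays in every genotype. The gene list counts below are to be read beside these shares. A list with few or no counted genes is not set apart from them. A minimum of 2-fold left 44 higher and 59 lower genes, so most of the differences were of modest size. Centring each array on its median gave 446 higher and 284 lower genes, which changed the share of higher genes among the counted ones from 50.7% to 61.1%. Differences are given below as replicate 2 minus the mean of replicates 1 and 3 of the same genotype, averaged over the 4 genotypes. They are on the scale of log2(signal + 5) and carry a standard error (SE). The SE comes from the fit to all 12 arrays and includes the spread between replicates 1 and 3. It is not the spread of the 4 genotype differences alone. The median difference over all tested genes was −0.00 and the median SE was 0.13.

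The lower genes included feedback inhibitors and immediate early factors of ERK signalling. In a list of 28 tested ERK and serum response genes, 8 were lower (28.6%, against 2.63% of all tested genes) and none was higher. The median difference was −0.35. Spry4, an inhibitor of receptor tyrosine kinase signalling, read 51.1 in the replicate 2 array against 308 and 178 in replicates 1 and 3 of wild type cells. It read 80.7 against 471 and 337 in Ring1B deficient, 78.9 against 348 and 214 in Eed deficient, and 90.2 against 271 and 224 in double deficient cells. The 4 replicate 2 arrays were below all 8 others, and the mean difference was −1.86 (SE 0.17). Its relative Spry2 read 74.9 to 279 in replicate 2 and 332 to 830 in the other arrays, a difference of −1.52 (SE 0.17).

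Egr1, an immediate early transcription factor, read 38.9 to 88.4 in the replicate 2 arrays and 116 to 524 in the others, with no overlap. The difference was −1.44 (SE 0.24), and it ran from −1.97 in wild type to −0.67 in double deficient cells. Myc, the growth-promoting transcription factor, read 17.2 in wild type replicate 2 against 165 and 36.7 in replicates 1 and 3. In Ring1B deficient cells it read 22.7 against 140 and 137, in Eed deficient cells 39.9 against 110 and 93.5, and in double deficient cells 38.3 against 75.8 and 66.6. Replicate 2 was lowest within each genotype, but wild type replicate 3 fell within the range of the replicate 2 arrays of other genotypes. The mean difference of Myc was −1.59 (SE 0.29). The other lower members were Fosl1 at −1.36, Etv4 at −1.16, Ier2 at −0.71 and Etv5 at −0.68, the Etv genes being ETS factors downstream of FGF. Fos, an immediate early gene itself, was not among them: it read 75.7 to 213 in replicate 2 and 61.7 to 163 in the others, a difference of 0.20 (SE 0.17).

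**Figure D2:**
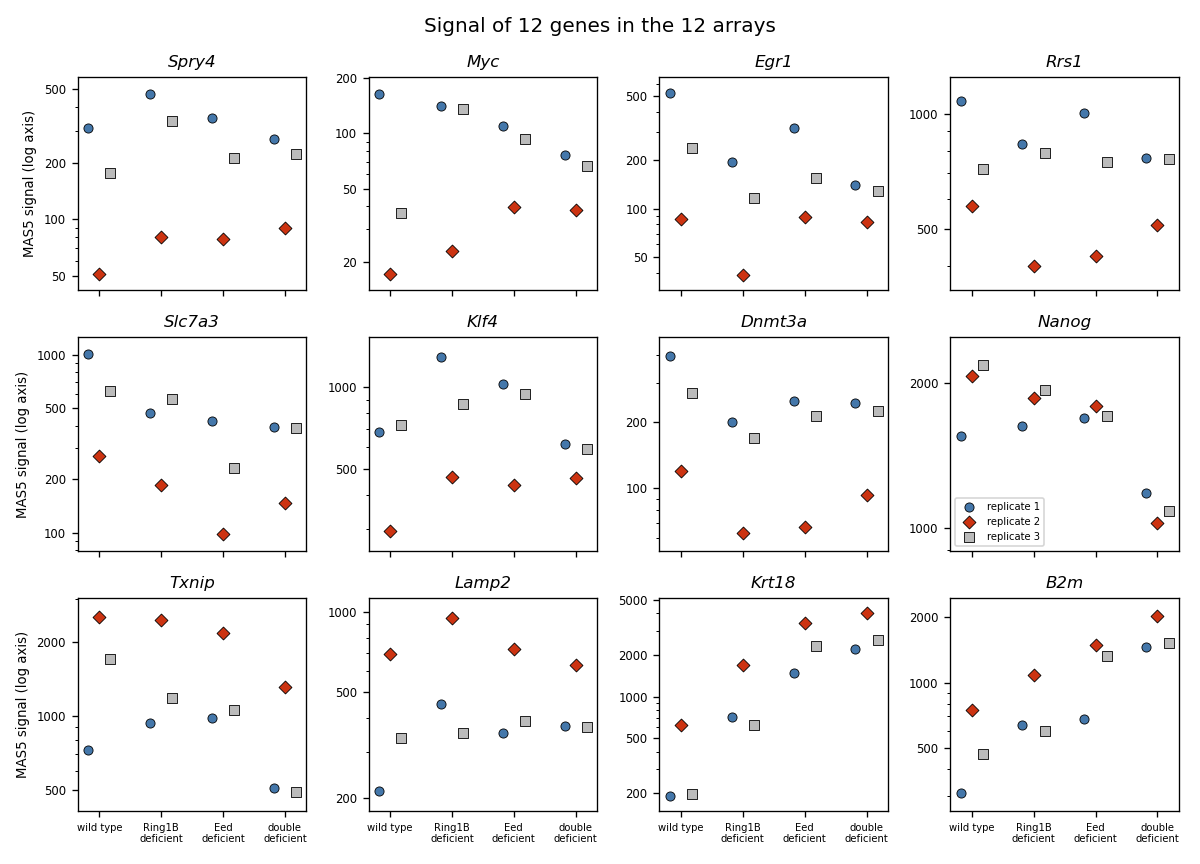
MAS5 signal (y axis, log axis) of 12 genes in the 12 arrays, by genotype (x axis), 1 point an array, with replicate 2 as red diamonds. Spry4, Egr1, Rrs1, Slc7a3, Klf4 and Dnmt3a sit lower in replicate 2 of each genotype, Txnip, Lamp2, Krt18 and B2m higher, and Nanog overlaps between the replicates.

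Some of the genes that make ribosomes were lower. Of 37 tested ribosome biogenesis genes, 8 were lower (21.6%, against 2.63% of all tested genes) and none was higher. Below both other arrays in 4 of 4 genotypes lay 20, a position held by 9.79% of all tested genes. The list's median difference was −0.30, with genotype medians between −0.35 and −0.30. Rrs1, a ribosome assembly factor, read 400.0 to 574 in the replicate 2 arrays and 719 to 1077 in the others, a difference of −0.80 (SE 0.12) with no overlap. Polr1b, the second largest subunit of RNA polymerase I, differed by −0.88 (SE 0.18), Rrp12 by −0.82 (SE 0.12) and Bysl by −0.80 (SE 0.10). Noc3l, Bop1, Utp20 and Nolc1 made up the rest of the 8, at −0.76 to −0.60. Srm, the spermidine synthase gene, was named after its values were seen: it read 485 to 554 in replicate 2 and 869 to 1594 elsewhere, and the ratio of the mean signals was 0.490. Wdr46, also a nucleolar protein gene, was among the 12 largest falls of counted genes brighter than the median gene. It read 155 against 664 and 443 in wild type, 119 against 417 and 447 in Ring1B deficient, 140 against 530 and 376 in Eed deficient, and 219 against 460 and 439 in double deficient cells, a difference of −1.56 (SE 0.14).

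The genes for the ribosomal proteins themselves did not follow. None of 22 was counted as higher or lower at 1.5-fold, and their median was 0.25. Above both other arrays in every genotype lay 19 of them, a position held by 11.7% of all tested genes. Rps19 read 4357 to 5302 in replicate 2 and 3174 to 4087 in the others, a difference of 0.38 (SE 0.05). When all tested genes were split into 10 equal groups by mean signal, the brightest group had a median difference of 0.07, against −0.03 to −0.00 in the others. Quantile normalization, which gives the arrays one distribution, brought the list's median to 0.02.

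Because Myc binds the E-box CACGTG, the promoter of Wdr46 is shown as an example of a lower gene with that motif. The sequences here are the 250 bases before the RefSeq gene start in build GRCm38.p6, 5′ to 3′ on the gene's strand, and capitals mark the match to the motif named. The window of Wdr46 is chr17:33940473-33940722 on the plus strand, and its match begins 12 bases before the start.
Wdr46: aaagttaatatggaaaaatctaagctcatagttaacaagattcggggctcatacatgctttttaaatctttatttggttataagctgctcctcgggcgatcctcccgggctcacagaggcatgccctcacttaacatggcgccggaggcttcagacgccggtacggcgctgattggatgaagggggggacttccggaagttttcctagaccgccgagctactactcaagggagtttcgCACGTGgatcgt
Windows of 250 bases before to 50 after the start were found for 11242 of the tested genes, 295 of the 379 higher and 291 of the 368 lower ones. CACGTG, searched on both strands, was in 11.6% of all windows, 17.2% of those of lower genes (50 of 291) and 7.46% of those of higher genes (22 of 295). It was in 7 of 32 windows of ribosome biogenesis genes (21.9%). The ETS motif CCGGAAGT was in 8.05% of all windows, 9.28% of lower genes, 2.03% of higher genes, and in 0 of 19 windows of the ERK list. A match describes letters only and is not a measured binding site.

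Some genes of the amino acid response were lower in the same arrays. Of 37 tested ATF4 targets, 8 were lower (21.6%) and none was higher, with a median of −0.36 and members between −1.50 and 0.50. Slc7a3, a transporter of cationic amino acids, read 270 against 1009 and 626 in wild type, 187 against 468 and 564 in Ring1B deficient, 98.4 against 423 and 232 in Eed deficient, and 147 against 391 and 386 in double deficient cells. Replicate 2 was lowest within each genotype, although Eed deficient replicate 3 read less than wild type replicate 2. The difference was −1.50 (SE 0.15), and the ratio of the mean signals was 0.342. The large neutral amino acid transporter gene Slc7a5 differed by −0.90 (SE 0.19). The mitochondrial folate enzymes Shmt2 and Mthfd2 differed by −0.83 (SE 0.13) and −0.69 (SE 0.12), and Atf5, Stc2 and Slc7a1 by −0.72 to −0.67. Chac1, which encodes a glutathione-degrading enzyme, read 40.7 to 62.3 in replicate 2 and 54.8 to 437 in the others, a difference of −1.05 (SE 0.29). The ranges overlapped because of the double deficient cells, where Chac1 read 40.7 against 54.8 and 55.8, and the difference there was −0.40 against −1.67 in wild type.

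Chac1 is shown because it held a match to TGATGNAA, the element to which ATF4 binds as a dimer with C/EBP factors. Its window is chr2:119350992-119351241 on the plus strand, and the match lies on the opposite strand, its first printed base 193 bases before the start.
Chac1: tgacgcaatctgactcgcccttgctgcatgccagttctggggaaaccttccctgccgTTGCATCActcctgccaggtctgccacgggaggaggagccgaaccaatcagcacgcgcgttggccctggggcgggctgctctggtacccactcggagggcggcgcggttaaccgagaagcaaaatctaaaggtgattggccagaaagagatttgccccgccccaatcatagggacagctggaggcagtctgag
TGATGNAA, searched on both strands, was in 2.90% of all windows, in 10 of 29 windows of the ATF4 list (34.5%), in 5.84% of those of lower genes and in 2.03% of those of higher genes. The list was drawn from known ATF4 targets, so its own share is not independent of the motif. The unfolded protein response, a neighbouring stress programme, had no counted gene among 22 and a median of 0.05.

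More naive pluripotency factors were lower than higher. Of 22 tested naive genes, 7 were lower (31.8%) and 1 was higher (4.55%), with a median of −0.47. Below both other arrays in 4 of 4 genotypes lay 11 and above both lay 2, against 9.79% and 11.7% of all tested genes. The list's medians within genotypes lay between −0.41 and −0.34. Gbx2, a homeobox factor downstream of LIF, read 34.1 against 286 and 71.6 in wild type, 29.5 against 147 and 262 in Ring1B deficient, 16.5 against 107 and 66.2 in Eed deficient, and 34.6 against 105 and 87.1 in double deficient cells. It had the second largest fall of the named genes, −1.97 (SE 0.28). The nuclear receptor gene Nr0b1 differed by −1.55 (SE 0.15). The Krüppel-like factor genes were lower together: Klf2 by −1.27 (SE 0.16), Klf4 by −0.99 (SE 0.13) and Klf5 by −0.86 (SE 0.16). Klf4 read 295 to 466 in replicate 2 and 590.5 to 1289 in the others, and the ranges did not overlap. Tbx3 and Mybl2 completed the 7, at −0.78 (SE 0.16) and −0.74 (SE 0.11).

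Dppa3, a maternal factor that protects against DNA demethylation, was the single higher member. It read 535 against 251 and 457 in wild type, 256 against 106 and 102 in Ring1B deficient, 840 against 323 and 275 in Eed deficient, and 441 against 214 and 336 in double deficient cells, a difference of 1.02 (SE 0.17). Nanog, the homeobox factor of the pluripotent state, read 1024 to 2063 in replicate 2 and 1082 to 2174 in the others, a difference of 0.04 (SE 0.09). Pou5f1 differed by −0.12 (SE 0.07) and Prdm14 by −0.06 (SE 0.12). Zfp42 and Esrrb lay below both other arrays in 4 of 4 genotypes, each at −0.47 and so short of 1.5-fold. Zfp42 read 1928 to 2305 in replicate 2 and 2706 to 3301 in the others, without overlap. Sox2 lay below both in 3 of 4 genotypes, at −0.42 (SE 0.10).

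The list of core and shared pluripotency genes had 5 lower (29.4%) and no higher members among 17, with a median of −0.43. They were Foxd3 at −1.14, Dppa2 at −1.11, Zscan10 at −0.90, L1td1 at −0.77 and Jarid2 at −0.70. Genes of the primed and formative state, which follow the naive state in development, had a median of −0.56 among 17. The 4 lower members (23.5%) were Dnmt3a, Lef1, Tcf15 and Foxd3, and the 2 higher ones (11.8%) Krt18 and Cldn6. Otx2, a formative factor, read 201 to 414 in replicate 2 and 247 to 658 elsewhere, a difference of −0.57 (SE 0.19) with replicate 2 lowest in 3 of 4 genotypes. Fgf5, a primed marker, was at or below 26.5 in each of the 12 arrays. Naive and primed lists thus both had negative medians.

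Signals upstream of these states were mixed. Of 14 LIF and STAT3 targets, 4 were lower (28.6%): Gbx2, Klf4, Klf5 and Bcl3. Socs3, the feedback inhibitor of STAT3 signalling, differed by −0.30 (SE 0.12). Of 10 Wnt targets, 4 were lower (40%). They were Lef1 at −1.39 (SE 0.29), Notum at −1.20 (SE 0.16), Fst at −0.72 (SE 0.18) and Ccnd1 at −0.60 (SE 0.12). The Nodal list had no counted gene among 13. Lefty1, a Nodal inhibitor, read 81.3 to 1396 in replicate 2 and 234 to 2131 in the others. Its difference was −1.09 (SE 0.32), and in wild type cells replicate 2 lay between the other 2 arrays. BMP and Id targets had 1 higher member (Bmp7 at 0.66) and 1 lower member (Bmp4 at −0.66) among 17. That is 5.88% each way, near the shares of 2.71% and 2.63% over all tested genes. Id1 differed by 0.00 (SE 0.17).

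The de novo methyltransferase gene Dnmt3a and the demethylation genes Tet1 and Tet2 were lower in replicate 2. In a list of 15 genes of DNA methylation and demethylation, these 3 were lower (20%) and none was higher. Below both other arrays in 4 of 4 genotypes lay 7, against 9.79% of all tested genes, and the list's median was −0.47. Dnmt3a read 120 against 398 and 270 in wild type, 63.1 against 200 and 169 in Ring1B deficient, 66.6 against 249 and 212 in Eed deficient, and 93.8 against 243 and 224 in double deficient cells. The replicate 2 arrays were below all others, at −1.47 (SE 0.12); 4 of its 5 probe sets had this sign. Tet2 and Tet1, which oxidise methylcytosine, differed by −1.20 (SE 0.12) and −0.89 (SE 0.12). Dnmt3b differed by −0.56 (SE 0.13) and lay below both others in every genotype, short of the fold minimum. Mbd3, a member of a methyl-binding family, was among the 3 genes nearest below the threshold, at −0.58.

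Polycomb genes, the subject of the mutants, had 4 lower members among 29 (13.8%): L3mbtl2 at −0.72, Phc1 at −0.71, Jarid2 at −0.70 and Cbx6 at −0.68. Phc1, a PRC1 subunit, read 1120 against 1924 and 1653 in wild type and 336 against 583 and 526 in double deficient cells. Jarid2, which recruits PRC2, read 679 to 887 in replicate 2 and 953 to 1660 in the others. Rnf2 was above both other arrays in 4 of 4 genotypes, at 0.31 (SE 0.08), although 2 of its 4 probe sets had this sign.

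**Figure D3:**
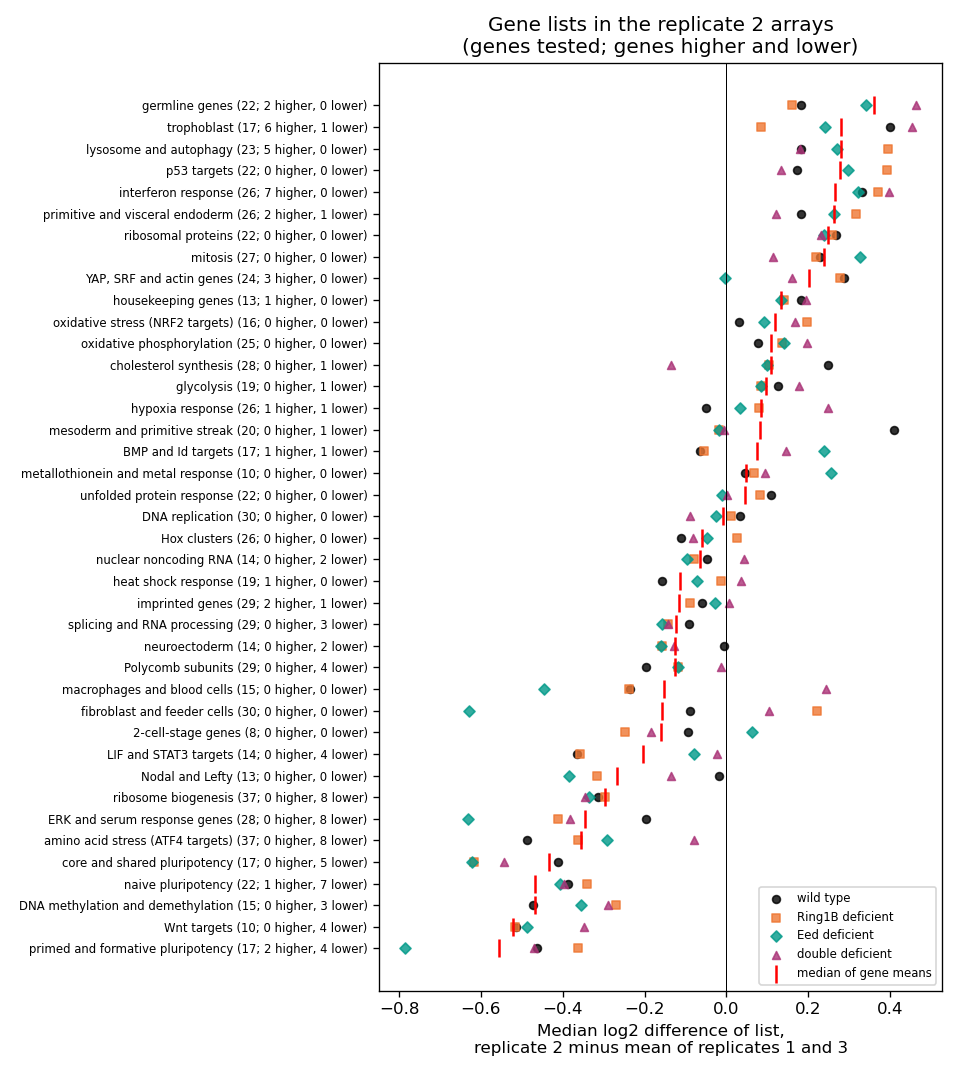
Median difference between replicate 2 and the other arrays (x axis, log2) of each gene list with at least 8 tested genes, in each genotype (symbols) and of the gene means (red bars), with the number tested and the numbers higher and lower after the list's name. ERK, ribosome biogenesis, ATF4, pluripotency and DNA methylation lists lie at −0.56 to −0.30, and lysosome, interferon and trophoblast lists at 0.26 to 0.28. The germline list is highest at 0.36, and p53, endoderm, ribosomal protein and mitosis lists lie at 0.24 to 0.28.

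The higher genes included 2 sugar-sensing arrestin genes. Txnip, which restrains glucose uptake and binds thioredoxin, read 2543 against 731 and 1704 in wild type, 2477 against 938 and 1183 in Ring1B deficient, 2189 against 984 and 1060 in Eed deficient, and 1316 against 509 and 491 in double deficient cells. Replicate 2 was highest within each genotype, although wild type replicate 3 read more than double deficient replicate 2. The difference was 1.22 (SE 0.15), and it was of like size in each genotype, from 1.10 to 1.39. Arrdc4, a related alpha-arrestin gene, read 472 to 1186 in replicate 2 and 187 to 609 in the others, a difference of 1.33 (SE 0.16). Pik3ip1, an inhibitor of PI3-kinase that was named after its values were seen, read 111 to 169 in replicate 2 and 35.8 to 101 in the others, a difference of 1.15 (SE 0.20).

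The promoter of Txnip is shown because its carbohydrate response element is a known site of sugar-dependent control. Its window is chr3:96557707-96557956 on the plus strand, with the match to a pair of CACGNG motifs 5 bases apart beginning 85 bases before the start.
Txnip: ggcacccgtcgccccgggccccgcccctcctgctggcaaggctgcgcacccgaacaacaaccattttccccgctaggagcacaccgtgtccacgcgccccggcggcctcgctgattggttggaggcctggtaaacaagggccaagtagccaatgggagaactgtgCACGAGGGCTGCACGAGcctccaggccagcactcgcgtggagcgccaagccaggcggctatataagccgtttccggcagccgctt
This pair, searched on both strands, was in 10 of 11242 windows (0.089%), in 1 of 295 windows of higher genes, which is Txnip, and in 0 of 291 windows of lower genes. Arrdc4 held no match in its window.

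Few genes of sugar metabolism itself passed the fold minimum. Of 19 glycolysis genes, Hk2, the inducible hexokinase, was the single counted one, lower at −0.63 (SE 0.12). The list's median was 0.10, with members both ways, such as Aldoc at 0.57 and Pfkp at −0.50. Above both other arrays in 4 of 4 genotypes lay 7 of them and below both lay 1, against 11.7% and 9.79% of all tested genes. Of 26 hypoxia genes, Hk2 was lower and Selenbp1 higher, with a median of 0.09. Of 25 oxidative phosphorylation genes none was counted, and their median was 0.11, or 0.01 after quantile normalization. Before that normalization 10 of them lay above and 1 below both other arrays in 4 of 4 genotypes. Of 28 cholesterol and fatty acid synthesis genes, Fasn was the single counted one, at −0.75 (SE 0.16).

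Some lysosome and autophagy genes were higher. Of 23 tested, 5 were higher (21.7%, against 2.71% of all tested genes) and none was lower, with a median of 0.28. Lamp2, a lysosomal membrane protein, read 693 against 213 and 338 in wild type, 953 against 450.2 and 352 in Ring1B deficient, 728 against 353 and 391 in Eed deficient, and 634 against 374 and 371 in double deficient cells. The 4 replicate 2 arrays were above all 8 others, at 1.08 (SE 0.12), and 4 of 4 probe sets had this sign. Gabarapl1, an autophagosome protein, differed by 0.84 (SE 0.12), the protease genes Ctsh and Lgmn by 0.79 and 0.62, and the sterol transporter Npc2 by 0.63. Tfeb, the factor that drives lysosomal genes, went the other way at −1.10 (SE 0.42), at low signals of 2.33 to 47.0 over the 12 arrays. CACGTG was in 8 of 19 windows of this list (42.1%), against 11.6% of all windows and 7.46% of those of higher genes. The motif thus stood in lists on both sides.

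Simple epithelial keratins were higher. The trophoblast list, which includes them, had 6 higher (35.3%) and 1 lower member (5.88%) among 17, with a median of 0.28. Krt18 read 621 against 191 and 196 in wild type, 1681 against 717 and 628 in Ring1B deficient, 3418 against 1486 and 2321 in Eed deficient, and 4044 against 2224 and 2588 in double deficient cells. The replicate 2 array was highest within each genotype, at 1.15 (SE 0.13), although the genotypes themselves differed more widely than the replicates. Krt7 differed by 1.46 (SE 0.19), Krt19 by 0.93 (SE 0.16) and Krt8 by 0.80 (SE 0.13), and the X-linked homeobox genes Rhox6 and Rhox9 by 0.82 and 0.74. Ascl2, a trophoblast transcription factor, was lower at −0.90 (SE 0.13), and Cdx2, the defining trophectoderm factor, was at or below 42.9 in each array with a difference of 0.27 (SE 0.24).

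Interferon response genes had 7 higher (26.9%) and no lower members among 26, with a median of 0.26. B2m, the light chain of MHC class I, read 747 against 310 and 467 in wild type, 1082 against 641 and 602 in Ring1B deficient, 1485 against 681 and 1318 in Eed deficient, and 2031 against 1451 and 1521 in double deficient cells. Replicate 2 was highest within each genotype, with overlap across genotypes. The difference was 0.71 (SE 0.15). Tap1, the peptide transporter for MHC class I, differed by 0.90 (SE 0.15), Ifi27l2a by 0.80, Gbp2 by 0.65, Igtp by 0.64, Rsad2 by 0.63 and Bst2 by 0.59. Rsad2 and Ifi27l2a were dim, with mean replicate 2 signals of 29.9 and 17.8.

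Contractile and actin genes had 3 higher members among 24 (12.5%). Acta1, the skeletal alpha-actin, read 152 against 41.2 and 41.5 in wild type and 59.3 against 20.4 and 16.4 in Ring1B deficient cells. In Eed deficient cells it read 177 against 73.2 and 102, and in double deficient cells 212 against 129 and 134, a mean difference of 1.22 (SE 0.15). Tpm1 and Csrp1, which bind actin filaments and the cytoskeleton, differed by 0.77 (SE 0.15) and 0.65 (SE 0.11). Tnnc1, a troponin gene outside the list, differed by 1.25 (SE 0.24).

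Growth and germline genes also held higher members. Igf2, an imprinted growth factor, read 179 against 57.7 and 74.2 in wild type and 2343 against 1004 and 1361 in double deficient cells, a difference of 0.96 (SE 0.14). The imprinted gene Sgce differed by 1.00 (SE 0.13). The list of 29 imprinted genes had 6.9% higher and 3.45% lower, near the shares of 2.71% and 2.63% over all tested genes. Its median was −0.12, and its lower member was Ascl2. Of 22 germline genes, Sycp3 and Stra8 were higher (9.09%), and the list's median of 0.36 was the highest of all lists. Sycp3, a protein of the meiotic chromosome axis, read 537 to 1058 in replicate 2 and 234 to 653 in the others, a difference of 1.09 (SE 0.13).

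Among the counted genes with the largest differences, several belonged to none of these lists. Car4, a membrane carbonic anhydrase, had the largest rise among counted genes brighter than the median gene. It read 171 against 69.6 and 44.7 in wild type, 398 against 131 and 201 in Ring1B deficient, 999.9 against 217 and 211 in Eed deficient, and 844 against 356 and 439 in double deficient cells. The difference was 1.52 (SE 0.17). Gpx2, a glutathione peroxidase, differed by 1.36 (SE 0.14), the membrane glycoprotein gene Pdpn by 1.30 (SE 0.13), Sfrp1, which encodes a secreted Wnt antagonist, by 1.22 (SE 0.17) and the transglutaminase gene Tgm2 by 1.20 (SE 0.21). Adssl1 and Tmem176a differed by 1.29 and 1.19. On the lower side, Enox1 read 15.6 to 52.9 in replicate 2 and 67.8 to 244 in the others. Its difference of −2.16 (SE 0.23) was the lowest of the counted genes. Zfp428 read 52.9 to 73.1 in replicate 2 and 147 to 492 in the others, a difference of −1.90 (SE 0.14). The nuclear noncoding RNA Neat1 and the RNA-binding protein gene Hnrnpu were also lower, at −0.94 (SE 0.16) and −0.77 (SE 0.09), although 3 of 5 Hnrnpu probe sets had this sign.

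Some lists held no counted gene. Of all tested genes 5.34% were counted, so none in a list of this length is near that share. It is not read as a result about the list. None of 30 DNA replication genes was counted, with a median of −0.01. None of 27 mitosis genes was counted either, and the median was 0.24. Above both other arrays in 4 of 4 genotypes lay 11 of them, a position held by 11.7% of all tested genes. Cdk1, the mitotic kinase, read 1757 to 2485 in replicate 2 and 1325 to 1941 in the others, a difference of 0.46 (SE 0.06). Among 22 p53 targets, none was counted, and the median was 0.28. Of these targets 9 lay above both other arrays in 4 of 4 genotypes, against the same 11.7% of all tested genes. Lists of 16 NRF2 targets, 10 metal response genes, 26 Hox genes and 8 genes of the 2-cell stage held none.

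Markers of other cells were read beside these lists. None of 30 fibroblast and feeder genes and none of 15 macrophage and blood genes was counted. This is near the share of 5.34% counted among all tested genes. The summed fibroblast signal was 6504 to 20545 in replicate 2 and 6252 to 19257 in the others, and the summed macrophage signal was 378 to 1446 and 421 to 1586, with the highest array Eed deficient replicate 3. These ranges are pooled over genotypes and hide differences within them. The fibroblast median was −0.09 for wild type, 0.22 for Ring1B deficient, −0.63 for Eed deficient and 0.10 for double deficient cells. The macrophage medians were −0.24, −0.24, −0.45 and 0.24 in the same order. In Eed deficient replicate 3, S100a4 read 769 against 236 and 217, and Lyz1 631 against 41.6 and 20.2, in replicates 1 and 2. The leukocyte markers Ptprc and Itgam were at or below 15.2 and 16.9 in every array and did not pass the signal filter. Some other leukocyte markers read higher and went both ways. Csf1r read 36.4 to 123 in replicate 2 and 16.0 to 95.0 in the others, a difference of 0.64 (SE 0.16). Cd68 read 53.6 to 112 and 27.9 to 88.0. Lyz2 read 17.3 to 322 and 31.0 to 357, a difference of −0.95 (SE 0.44). Primitive and visceral endoderm genes had 2 higher members, Apoe at 0.75 and Cited1 at 0.84, and 1 lower member, Sox7 at −0.68, among 26. These shares (7.69% and 3.85%) are near those over all tested genes, and the list's median was 0.26. Their summed signal was 3041 to 18289 in replicate 2 and 2425 to 15635 in the others. In bulk RNA, more cells of a type and more RNA per cell cannot be told apart.

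The difference was smaller in double deficient cells than in the other genotypes as a description. The spread over all tested genes was smaller there too. The standard deviation of the replicate 2 difference was 0.37 in double deficient cells and 0.44 to 0.46 in the other genotypes. That of replicate 1 minus replicate 3 was 0.33 and 0.38 to 0.46. The part of this spread in the smaller difference was not tested. The higher genes had median differences of 0.78 for wild type, 0.84 for Ring1B deficient, 0.82 for Eed deficient and 0.56 for double deficient cells. The lower genes had medians of −0.73, −0.87, −0.86 and −0.53 in the same order. Whether single genes differed in this way was tested with limma's F test of the differences between genotypes, which does not use the mean over genotypes. It called no gene at an adjusted p under 0.05 (0% of 13984). At an unadjusted p under 0.05 it gave 425 genes (3.04%), 29 of them among the 747 counted genes, and the smallest adjusted p was 0.933. The counting rule asked for the same side in every genotype, which limits these differences, so nothing is read from the 29. No gene was called for any mutant against wild type either. The gene with the widest spread among the 8 smallest p was Afp, the alpha-fetoprotein of visceral endoderm. It read 201 against 34.7 and 11.5 in Ring1B deficient and 706 against 89.1 and 28.6 in Eed deficient cells, but 30.6 against 49.2 and 42.3 in double deficient cells and 2.53 or less in wild type.

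The 2 sets of arrays used as the reference were then compared with each other, a contrast that is independent of the replicate 2 difference in this balanced layout. With limma and genotype as a block, no gene differed between replicates 1 and 3 at an adjusted p under 0.05 (0% of 13984), the smallest adjusted p being 0.165. At an unadjusted p under 0.05 there were 1621 genes (11.6%). Without the double deficient replicate 1 array 67 genes passed, and without the double deficient replicate 3 array 12 did. These p-values measure the spread between the arrays, since the labels do not say how the cultures were kept apart.

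Replicate 3 lay closer to replicate 2 than replicate 1 did for most of the counted genes. Of the 379 higher genes, 299 (78.9%) had a mean in replicate 1 below that in replicate 3, against 52.9% of all genes, with a median difference of −0.19. Of the 368 lower genes, 298 (81.0%) had replicate 1 above replicate 3, against 47.1% of all genes, with a median of 0.19. The pattern was not the same in each genotype. For the higher genes the median of replicate 1 minus replicate 3 was −0.51 for wild type, 0.04 for Ring1B deficient, −0.22 for Eed deficient and −0.03 for double deficient cells. For the lower genes it was 0.39, 0.13, 0.27 and 0.05. For Myc in wild type cells, replicate 3 at 36.7 was nearer to replicate 2 at 17.2 than to replicate 1 at 165, whereas in double deficient cells replicates 1 and 3 were close together.

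**Figure D4:**
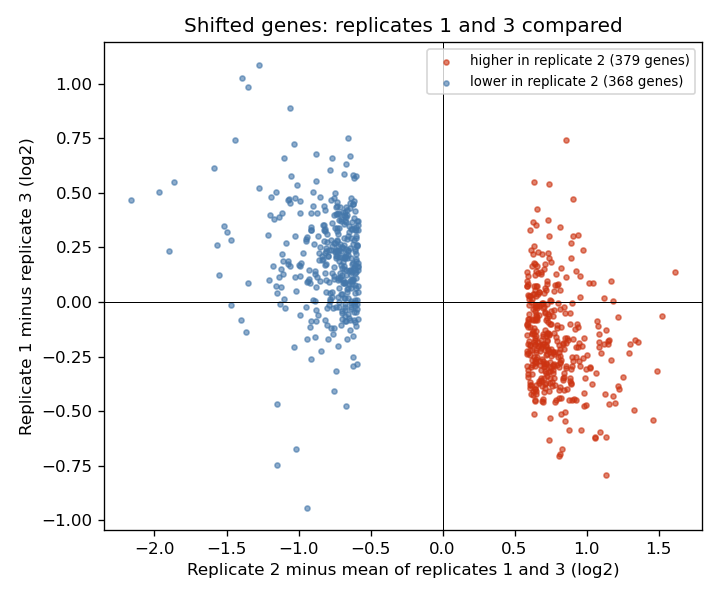
Each of the 747 counted genes by its replicate 2 difference (x axis, log2) and its difference between replicates 1 and 3 (y axis, log2), both averaged over the 4 genotypes. Of the lower genes, 298 of 368 lie above 0 on the y axis, and of the higher genes, 299 of 379 lie below it.

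Genotype differences were set beside the replicate 2 difference. limma's F test over the 4 genotypes called 3983 genes (28.5%) at an adjusted p under 0.05. It called 110 of the 379 higher genes (29.0%) and 47 of the 368 lower genes (12.8%). Krt18 (adjusted p = 0.000491), Igf2 (2.62e-05) and B2m (0.00622) were among the higher genes that also differed between genotypes in this limma test. The replicate 2 arrays are part of the spread on which this test rests, so a counted gene carries its replicate 2 difference in that spread, and nothing is read from these shares against 28.5%.

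Measures of the arrays themselves also moved with replicate 2. The signals of the cre hybridisation control, a transcript added in a known amount before hybridisation, were 6610 to 7609 in replicate 2 and 5117 to 6642 in the others, highest in 4 of 4 genotypes. The bioB control read 231 to 254 and 172 to 238, again highest in 4 of 4. The ratio of the 3′ to the 5′ probe set of Actb, a measure of RNA integrity and labelling, was 1.39 to 1.66 in replicate 2 and 1.27 to 1.42 in the others, and highest in 3 of 4 genotypes. The same ratio for Gapdh was 0.755 to 0.774 and 0.716 to 0.806, within the range of the others. Array medians were 19.7 to 23.3 and 19.1 to 28.0. The part of these measures in the gene differences above was not tested.

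**Figure D5:**
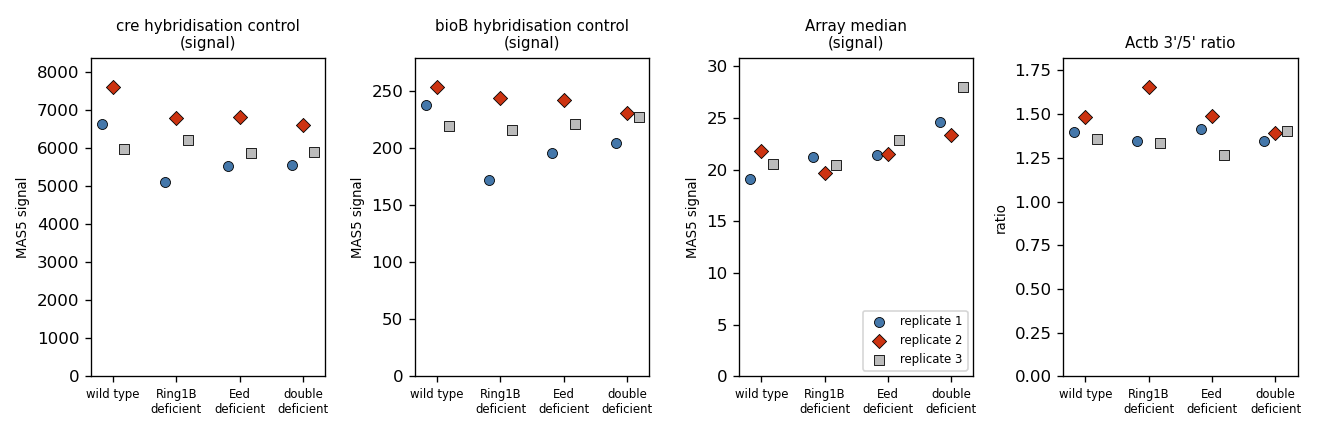
Signals of the cre and bioB hybridisation controls, the median signal of each array, and the Actb 3′ to 5′ ratio (y axes from 0), by genotype (x axes), 1 point an array. Replicate 2 has the highest cre and bioB signal within each genotype, and its array medians lie within the range of the others.

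The fold minimum separates genes of like value. Just inside it were Col26a1 and Focad, each higher by 0.59, and Atm, lower at −0.59. Just outside it were Mbd3, Lce1i and Adam23, each lower at −0.58.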

How the data were processed

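Messenger RNA of 12 ES cell cultures was measured on 1 array each. The deposited intensity values are MAS5 signals per probe set, per the submitters' processing notes (version not given in the sources used here), on a linear scale; the mean after removing 2% at each end was equal in all arrays, so the authors' values were already scaled. Of 45101 probe sets, 64 were controls, and of the rest 34945 had 1 gene symbol in the platform annotation, 932 several and 9160 none listed. Values were taken as log2(signal + 5). Probe sets above the 40th percentile of the array in at least 3 of 12 arrays were kept, and a gene was read from its brightest probe set, which left 13984 of 18193 genes. A gene above this level in the replicate 2 arrays alone could pass this filter. Counts over the lists refer to tested members, 813 of 942 distinct genes on 41 lists. Fits used limma 3.58.1 in R 4.3.3 (lmFit, eBayes with trend) with Benjamini-Hochberg adjustment over all tested genes. The scripts were tested on simulated data. Precision is limited by the 12 arrays.

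The comparison, its members, the gene lists and the motifs were chosen with earlier results of these data known, and no count here is independent support. Genes were named by a rule: the 12 largest differences each way among counted genes brighter than the median gene, the 4 members of each list with the largest differences, a set of pluripotency, signalling and control genes, the 8 smallest p for genotype dependence, and the 3 genes nearest to the threshold on each side. Other list members are named where they were counted; Srm, Pik3ip1 and the leukocyte markers were chosen after their values were seen. List symbols were updated through RefSeq synonyms. Alternatives were quantile normalization, median centring, pseudocounts of 1 and 20, no filter, a filter on all 12 arrays, the mean of a gene's probe sets, other fold minimums, eBayes without trend, a replicate block, and leaving out each array. RefSeq promoters of chromosome 18 were left out.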

Additional observations from a re-analysis of the deposited data

Results flagged for a closer look

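Of 41 gene list medians compared across the 4 genotypes, 1 had a genotype far from the others. The list of 20 mesoderm and primitive streak genes had a median replicate 2 difference of 0.411 in wild type cells, against −0.02, −0.02 and −0.01 in Ring1B deficient, Eed deficient and double deficient cells. It was picked out because the gap to the next value took up more of the range than Dixon's limit allows. Chance gives such a gap in about 1 in 20 groups of 4. The difference between genotypes was not tested for the list.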

How the results depend on the processing

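The counts of 379 higher and 368 lower genes became 222 and 213 with a pseudocount of 20, which shrinks differences of dim genes, 44 and 59 with a 2-fold minimum, and 1641 and 1369 with no fold minimum. Leaving out 1 array at a time gave 309 to 563 higher and 327 to 540 lower genes, both highest without double deficient replicate 2. The counting rule itself loosens when an array is left out. Without a replicate 2 array its genotype was skipped, and without another array replicate 2 had only 1 array of that genotype to exceed. Counts can rise from this alone. Quantile normalization gave 415 and 318 genes, of which 365 and 308 were shared with those above; median centring gave 446 and 284, with 362 and 274 shared. Leaving out 1 array gave 0 to 67 genes between replicates 1 and 3, 0 to 0 for genotype dependence and 2706 to 3953 for genotype differences. No result reversed its sign as a called value. Of 1366 values of single genes under the other settings 51 moved by more than the spread between genotypes, and of 287 list medians 24 did. Deviations from the genotype mean correlated between same-numbered arrays at 0.16 to 0.43 for replicate 1, 0.27 to 0.61 for replicate 2 and −0.05 to 0.18 for replicate 3, and 9 of 12 arrays correlated best with an array of their own number. The numbers therefore did not pair all samples; with a replicate block, genotype differences rose from 3983 to 6458 genes and genotype dependence from 0 to 1 gene. Dim genes had the least certain differences, as for Tfeb (SE 0.42) and Fgf5 (SE 0.41).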
